A study of Mus musculus with 8 samples.

Results

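The clustered protocadherins are cadherin-related adhesion proteins of neurons, encoded by 3 gene clusters (alpha, beta and gamma) that follow one another on mouse chromosome 18. Their transcripts were followed in the dorsal root ganglia (DRG), where the somatosensory neurons of the body and their glia reside. The members were taken by gene symbol, as every symbol that begins with Pcdha, Pcdhb or Pcdhg and ends in an isoform number. This gave 58 genes, 14 alpha, 22 beta and 22 gamma, of the 55414 genes listed for each library. Bulk RNA-seq was available from E18.5 embryos in 8 libraries, 4 per group. AD1 OE embryos had the genotype AdvillinCre/+;Rosa26Dach1/+. In them, a Cre recombinase at the sensory neuron gene Advillin switches on a Dach1 copy at Rosa26, so that Dach1, a transcription factor normally lost from most DRG neurons, is expressed broadly in them late in development. Control embryos had the genotype Advillin+/+;Rosa26Dach1/+ and therefore carried the same Rosa26 allele without Cre. The Rosa26 allele also encodes the fluorescent protein EGFP after Dach1. Cre, the altered Advillin gene that carries it, EGFP and the forced Dach1 expression came together, so their effects cannot be told apart. The labels describe the tissue as neurons and glia.

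Each alpha or gamma transcript starts at its own promoter with a large variable exon, which encodes the extracellular cadherin repeats and the membrane span, and is spliced to constant exons that encode a cytoplasmic tail common to the whole cluster. The beta genes have a single coding exon and no constant part. A neuron switches on a random few of the alternate members, through CTCF and cohesin that bring a promoter to a distant enhancer, whereas the C-type members (Pcdhac1, Pcdhac2, Pcdhgc3, Pcdhgc4 and Pcdhgc5) are used in a more regular, cell-type-dependent way. Proteins of the same kind on facing membranes bind each other, and this recognition underlies the self-avoidance of branches of one neuron. The gamma cluster is known to serve survival and synapse formation, also in somatosensory neurons.

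The main result was that 1 member, Pcdhac1, was lower in AD1 OE, at 50.7% of its Control level, while 0 of the other 53 members tested passed the threshold in edgeR or in DESeq2, with 5 of them at an unadjusted edgeR p under 0.05. Of all tested genes, edgeR called 2.57%, and 18.6% had such an unadjusted p. The summed levels of the alpha cluster, with or without Pcdhac1, of the beta cluster and of the gamma cluster overlapped between the groups. The alpha sum without Pcdhac1 was added after seeing the data. Libraries held 22339059 to 44025625 counts, of which 10976 to 23310 fell on the members. Dach1 was at 95.9 ± 5.28 CPM, a count scaled by library size, in AD1 OE and at 32.6 ± 1.64 CPM in Control (mean ± SD, n = 4 each), without overlap, as the group labels say. Avil, the gene that carries Cre, stood at 52.0% of Control. By Xist and Y-linked transcripts, AD1 OE held 3 male and 1 female libraries and Control 1 male and 3 female libraries.

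The counts are per gene, and the constant exons belong to every gene of a cluster. In the annotation, the exons of each alpha member overlapped those of the other 13, over at least 2860 bases, and the exons of each gamma member overlapped those of the other 21, over at least 2116 bases. A read in these exons cannot be given to one member, so the level of a member rests on the bases that no other gene shares. These numbered 2559 for Pcdhac1 and 3028 for Pcdhac2. The beta members shared no exon with each other except Pcdhb21 and Pcdhb22, over 455 bases. Of the 58 members, 54 had enough counts to be tested and 4 did not. Pcdhga10 had no unshared base, since an antisense gene covers its variable exon, and it had 0 counts in all 8 libraries, where a count of 0 allows up to 0.0678 to 0.135 CPM. Pcdha4 had only 404 unshared bases and 0 to 6 counts. Pcdha11 had 1268 unshared bases and 0 to 3 counts. For these 3 genes the low counts go with overlaps in the annotation, and whether the genes are transcribed was not tested. Pcdhb1, whose 2588 exonic bases are all its own, had at most 1 count in a library and stayed at or under the 3 counts taken as the floor.

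Levels were compared between members as CPM per kilobase of unshared exon, averaged over all 8 libraries. The alpha members ranged from 0.0399 for Pcdha11 to 21.5 for Pcdhac2, with a median of 4.13 over the 13 members that had at least 500 unshared bases. The beta members ranged from 0.00287 for Pcdhb1 to 4.85 for Pcdhb9, with a median of 1.84. The medians rest on this length and were not compared by other lengths. The gamma members had a median of 2.46 and reached 11.8 for Pcdhgc3. Of the 5 C-type members, Pcdhac2 and Pcdhgc3 were the highest of their clusters in every library by this length. Pcdhgc5 stood at the other end, in place 20 or 21 of the 21 gamma members ranked. The order depends on the length used, and with all exonic bases 2 of the top 3 members were the same in the alpha and in the gamma cluster and 3 in the beta cluster. The libraries were stranded, and if only exons of the same strand counted as shared, again 2, 2 and 3 of the top 3 were the same. By that length, added after seeing the data, Pcdhgc3, at 6.38 CPM per kilobase, fell below Pcdhga3, at 6.51, while Pcdhac2 stayed highest in the alpha cluster.

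**Figure D1:**
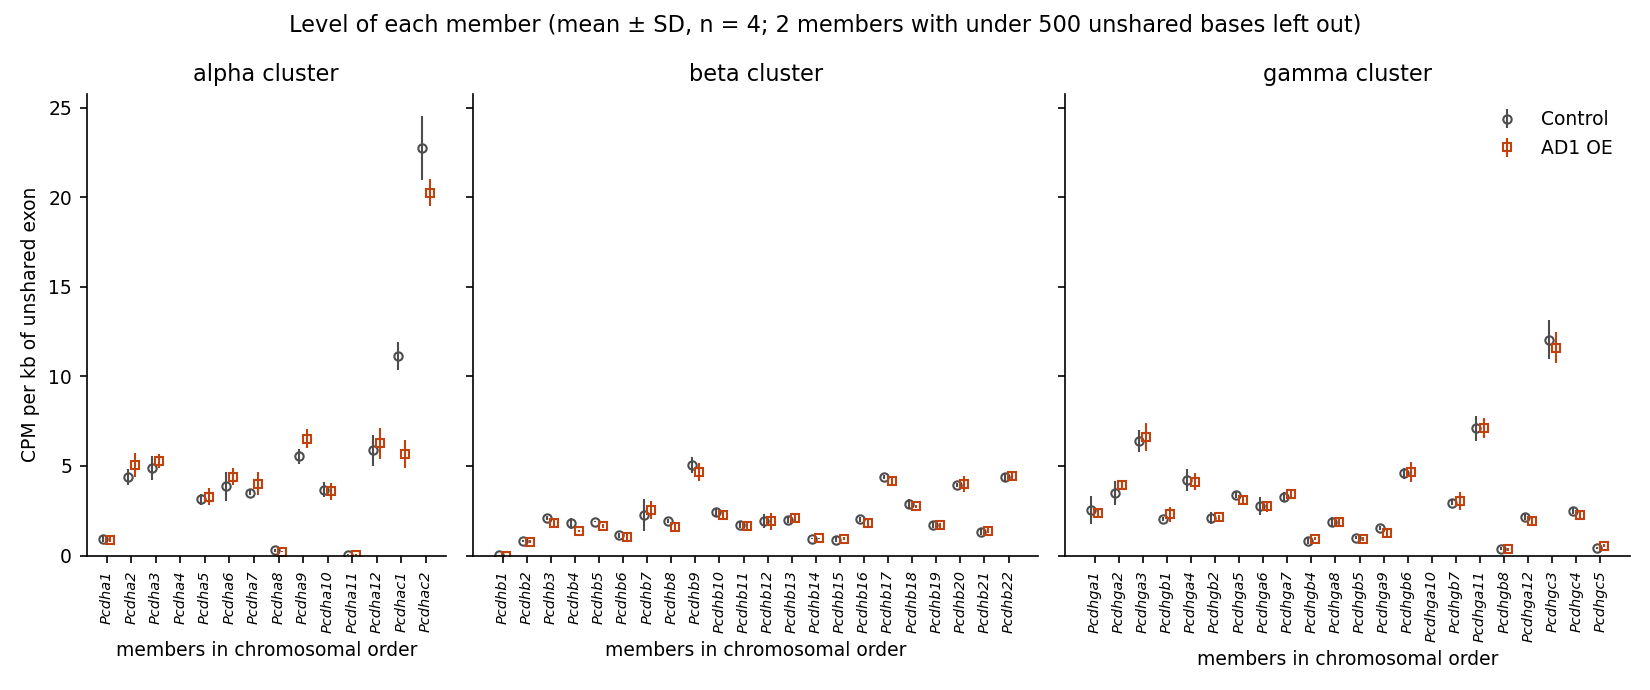
Level of each clustered protocadherin as CPM per kilobase of unshared exon (vertical axis), for members in chromosomal order (horizontal axis) in Control (grey circles) and AD1 OE (orange squares), as mean ± SD over 4 libraries. Pcdhac2, Pcdhgc3 and, in Control, Pcdhac1 stand above the rest, and Pcdhac1 alone shows a wide gap between the groups, from 11.1 in Control to 5.65 in AD1 OE.

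Pcdhac1 (ENSMUSG00000103255) is the first of the pair of C-type variable exons at the downstream end of the alpha cluster. It was at 27.0, 30.3, 26.5 and 30.3 CPM in Control replicates 1 to 4. In AD1 OE replicates 1 to 4 it was at 16.3, 12.8, 12.6 and 16.1 CPM. All AD1 OE libraries lay below all Control libraries, and the highest AD1 OE library was well under the lowest Control library. The counts behind these values were 287 to 719 in AD1 OE and 600 to 1072 in Control. The log2 fold change was -0.98 (standard error 0.09, 95% interval -1.18 to -0.77, edgeR adjusted p = 4.70e-05), and the interval corresponds to 0.442 to 0.585 of the Control level. Genes were called past a log2 change of 0.25 either way with an adjusted p below 0.005. By this rule 1.78% of all 17721 tested genes were lower and 2.57% changed in either direction. Among all tested genes, 142 had a lower log2 fold change. The level of Pcdhac1 was 12.6 CPM in the female AD1 OE library against 26.5 to 30.3 CPM in the 3 female Control libraries, and 12.8 to 16.3 CPM in the 3 male AD1 OE libraries against 30.3 CPM in the male Control library. With sex as a covariate the log2 fold change was -1.07 (edgeR adjusted p = 3.06e-05). In whole ganglia, fewer cells with Pcdhac1 and less Pcdhac1 RNA per cell cannot be told apart.

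Pcdhac2 (ENSMUSG00000102697), the last variable exon of the alpha cluster and a protein known from the spacing of serotonergic axons, was the most abundant member. Its levels were 64.1, 58.9, 60.1 and 62.3 CPM in AD1 OE replicates 1 to 4 and 64.6, 76.8, 66.2 and 68.2 CPM in Control replicates 1 to 4. The groups did not overlap, but the highest AD1 OE library nearly reached the lowest Control library. The log2 fold change of -0.17, with a 95% interval of -0.29 to -0.05, was not past the threshold (edgeR adjusted p = 0.112). As a description of this pair, which was chosen with the values known, the count of Pcdhac1 divided by that of Pcdhac2 was 0.210 to 0.259 in AD1 OE and 0.394 to 0.444 in Control.

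Among the members of its cluster, Pcdhac1 changed place. By level per kilobase it ranked second, after Pcdhac2, in all 4 Control libraries, with the order of 13 alpha members headed by both C-type members. In AD1 OE it ranked between 3 and 7. Pcdhac1 took 15.2 to 16.6% of the alpha counts in Control and 7.64 to 9.52% in AD1 OE. The share of Pcdhac2 was 37.4 to 38.8% in Control and 36.3 to 37.8% in AD1 OE, and the groups overlapped. The alternate members took 45.7 to 46.1% in Control and 53.7 to 56.0% in AD1 OE. These shares are tied to each other because they add up to the whole cluster.

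**Figure D2:**
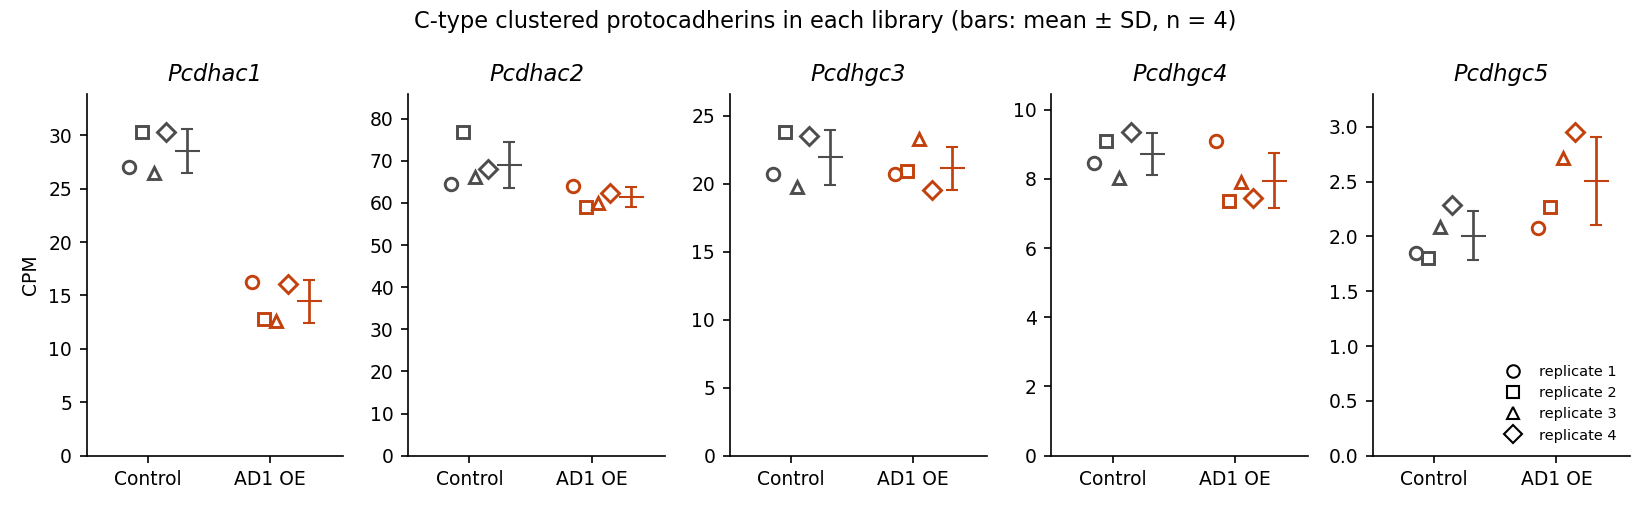
CPM of the 5 C-type members (vertical axes, each from 0) in the 4 Control and 4 AD1 OE libraries (horizontal axis), with a symbol for each replicate number and mean ± SD beside the points. The Pcdhac1 libraries fall into separate ranges, 26.5 to 30.3 in Control and 12.6 to 16.3 in AD1 OE, while the other C-type members stay close together or overlap.

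The C-type members of the gamma cluster overlapped between the groups. Pcdhgc3, which is known to act on dendrite branching through Axin1, was at 20.7, 21.0, 23.3 and 19.5 CPM in AD1 OE replicates 1 to 4 and at 20.7, 23.8, 19.8 and 23.5 CPM in Control replicates 1 to 4. Its log2 fold change was -0.06 with a 95% interval of -0.23 to 0.11. Pcdhgc4, the gamma isoform that neuronal survival depends on, was at 9.09, 7.35, 7.92 and 7.45 CPM in AD1 OE and at 8.46, 9.10, 8.02 and 9.35 CPM in Control. Its log2 fold change was -0.13 with an interval of -0.33 to 0.06. Pcdhgc5, an isoform known to associate with GABA-A receptors, was at 2.08, 2.27, 2.72 and 2.95 CPM in AD1 OE and at 1.85, 1.81, 2.08 and 2.29 CPM in Control. It had the highest log2 fold change of all members tested, 0.31, but its interval of -0.03 to 0.64 held 0. The edgeR adjusted p-values of these 3 genes were 0.752, 0.486 and 0.313. None of the 3 intervals reached down to that of Pcdhac1.

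Of the 12 alternate alpha members, 10 were tested and 0 were called by edgeR or by DESeq2, with 1 at an unadjusted edgeR p under 0.05. Their log2 fold changes ran from -0.40 (Pcdha8) to 0.24 (Pcdha9), with 7 above 0 and a median of 0.10, where the median of all tested genes was 0.002. Pcdha9 was at 17.1, 15.2, 14.9 and 17.6 CPM in AD1 OE replicates 1 to 4 and at 14.4, 14.5, 12.3 and 13.8 CPM in Control replicates 1 to 4, without overlap of the groups. It did not pass (log2 fold change 0.24, interval 0.07 to 0.41, edgeR adjusted p = 0.103). Pcdha12, the alternate member next to Pcdhac1, was at 14.1, 12.3, 12.3 and 9.97 CPM in AD1 OE and at 10.9, 12.8, 9.28 and 12.8 CPM in Control, with a log2 fold change of 0.09 and an interval of -0.17 to 0.35. The neighbours of Pcdhac1 on both sides did not pass the threshold, though Pcdhac2 was also lower in AD1 OE, without overlap of the groups. Pcdha8, at 12 to 24 counts in a library, was the only other member whose interval, -0.92 to 0.12, overlapped that of Pcdhac1.

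In the beta cluster 21 of 22 members were tested and 0 were called by edgeR or by DESeq2, with 3 at an unadjusted edgeR p under 0.05. Their log2 fold changes ran from -0.36 (Pcdhb4) to 0.16 (Pcdhb7), with 14 below 0 and a median of -0.05. Pcdhb4 was at 5.38, 5.12, 5.16 and 4.93 CPM in AD1 OE replicates 1 to 4 and at 8.33, 6.32, 6.56 and 5.42 CPM in Control replicates 1 to 4. The groups did not overlap, though Control replicate 4 came close to the AD1 OE libraries (log2 fold change -0.36, interval -0.62 to -0.09, edgeR adjusted p = 0.121), and without Control replicate 1 the log2 fold change was -0.24. Pcdhb5 was at 5.95, 5.44, 6.46 and 5.47 CPM in AD1 OE and at 6.62, 6.76, 6.84 and 6.55 CPM in Control, again without overlap (log2 fold change -0.20, edgeR adjusted p = 0.226). Pcdhb8 was at 4.75, 5.12, 6.50 and 5.94 CPM in AD1 OE and at 6.89, 6.88, 6.72 and 6.07 CPM in Control, where the groups overlapped (log2 fold change -0.25, edgeR adjusted p = 0.227), and with sex as a covariate the log2 fold change was -0.14. The most abundant beta members per kilobase showed smaller differences. Pcdhb9 was at 13.4, 13.2, 16.6 and 13.7 CPM in AD1 OE and at 13.6, 16.7, 16.2 and 15.02 CPM in Control (log2 fold change -0.11, interval -0.31 to 0.08). Pcdhb22 was at 27.6, 25.2, 27.6 and 29.0 CPM in AD1 OE and at 25.6, 28.6, 27.6 and 25.8 CPM in Control (0.02, interval -0.11 to 0.15). Pcdhb17 was at 19.4, 18.7, 20.7 and 19.0 CPM in AD1 OE and at 20.7, 21.2, 20.0 and 19.9 CPM in Control (-0.07, interval -0.19 to 0.05). The groups overlapped for each of these 3, and the intervals of Pcdhb22 and Pcdhb17 were among the narrow ones.

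In the gamma cluster 21 of 22 members were tested, and 0 were called by edgeR or by DESeq2 or had an unadjusted edgeR p under 0.05. The 11 tested members of type A had log2 fold changes of -0.25 to 0.17 and the 7 of type B had -0.14 to 0.18. Pcdhga3 was at 18.3, 15.9, 19.6 and 15.1 CPM in AD1 OE replicates 1 to 4 and at 15.6, 19.0, 16.2 and 15.9 CPM in Control replicates 1 to 4 (log2 fold change 0.04, interval -0.16 to 0.25). Pcdhga11 was at 8.86, 9.62, 9.26 and 7.95 CPM in AD1 OE and at 7.61, 9.31, 9.24 and 9.52 CPM in Control (-0.006, interval -0.20 to 0.19). Both overlapped throughout, as did every other gamma member.

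Over all members tested, 1 of 54 was called lower and 0 higher, against 1.78% of all tested genes called lower and 2.57% in either direction. The number of calls was thus near the share of all genes. At an unadjusted edgeR p under 0.05 there were 6 members (11.1%), Pcdhac1, Pcdhac2, Pcdhb4, Pcdhb5 and Pcdhb8 lower and Pcdha9 higher, against 18.6% of all tested genes. The groups did not overlap for 5 members (9.26%), against 13.0% of all tested genes. Neither of these 2 percentages was above that of all genes. The members were less precisely measured, with a median standard error of 0.108 against 0.0725 for all tested genes. At an equal change fewer of them would reach such a p. The median log2 fold change of the members was -0.01, and without composition scaling it was 0.007. For the 53 members other than Pcdhac1 the log2 fold changes lay between -0.40 and 0.31, with edgeR adjusted p-values from 0.103 to 0.992, and 52 of their intervals lay wholly above that of Pcdhac1. Of the 53 intervals, 46 lay within a log2 change of 0.5 either way and all 53 within 1. The interval reached 0.54 to either side of the estimate in the least precise case.

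**Figure D3:**
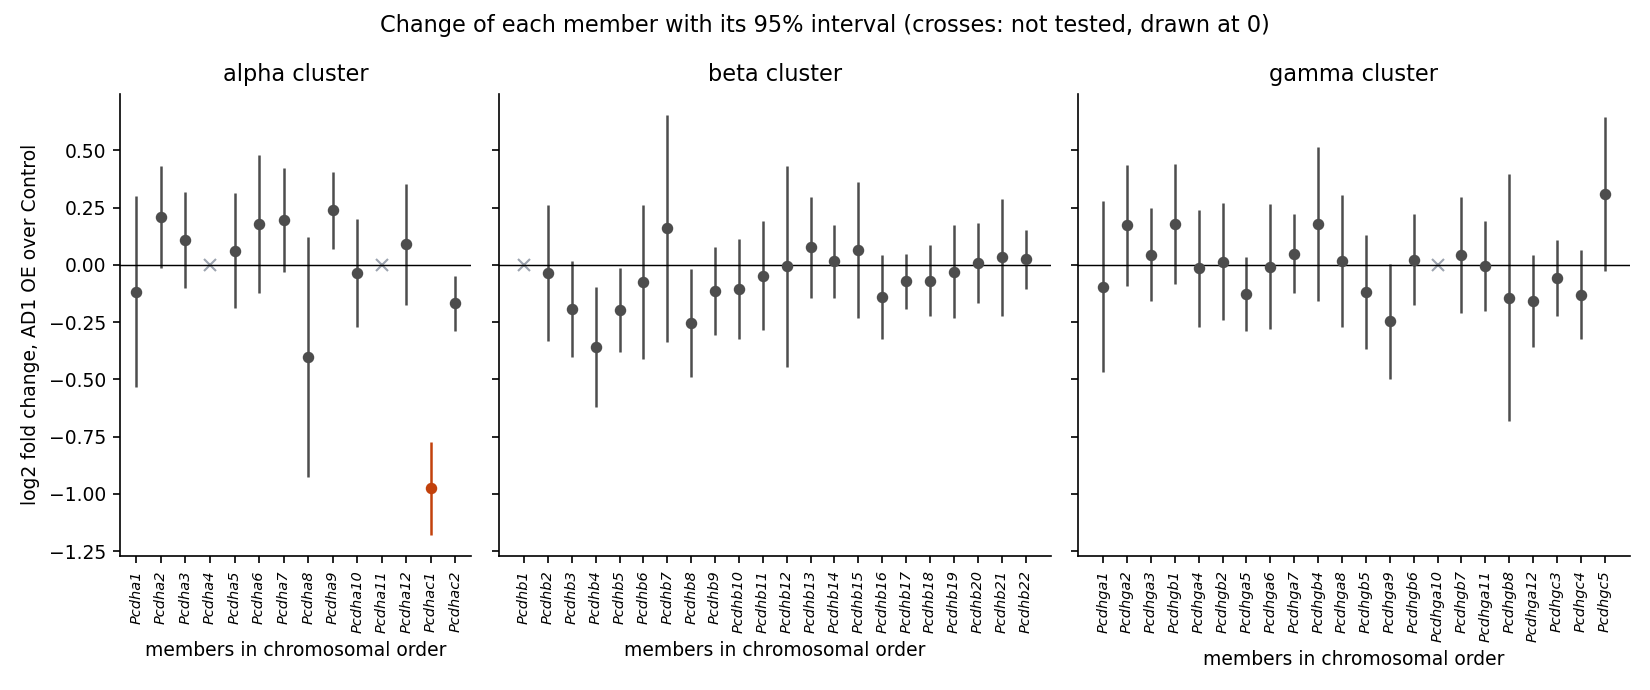
Log2 fold change of AD1 OE over Control (vertical axis) for each clustered protocadherin in chromosomal order (horizontal axis), with the 95% interval from the edgeR fit. Crosses at 0 mark the 4 members that were not tested. Pcdhac1, in orange, is the only member called, at -0.98, and 52 of the 53 other intervals lie above its own.

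The clusters were also summed, as a description with no test. The alpha sum was 174.5, 156, 165 and 169 CPM in AD1 OE replicates 1 to 4 and 169, 199, 171 and 182 CPM in Control replicates 1 to 4. This gave 166 ± 7.95 CPM against 180 ± 13.7 CPM (mean ± SD, n = 4), or 92.3% of Control, with overlap of the groups. Without Pcdhac1 the alpha sum was 152 ± 6.40 CPM in AD1 OE against 152 ± 12 CPM in Control, or 100.1% of Control. Within that sum, the lower mean of Pcdhac2 and the higher mean of the alternate members in AD1 OE offset each other. The 10 tested and 2 untested alternate alpha members together summed to 90.4 ± 4.47 CPM, against 82.7 ± 6.65 CPM for Control, with overlap. The beta sum was 189 ± 7.54 CPM in AD1 OE against 197 ± 10.5 CPM in Control. The gamma sum was 159 ± 8.32 CPM in AD1 OE against 160 ± 10.5 CPM in Control. The difference between the group means was smaller than the SD of the Control libraries for the beta and the gamma sum.

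**Figure D4:**
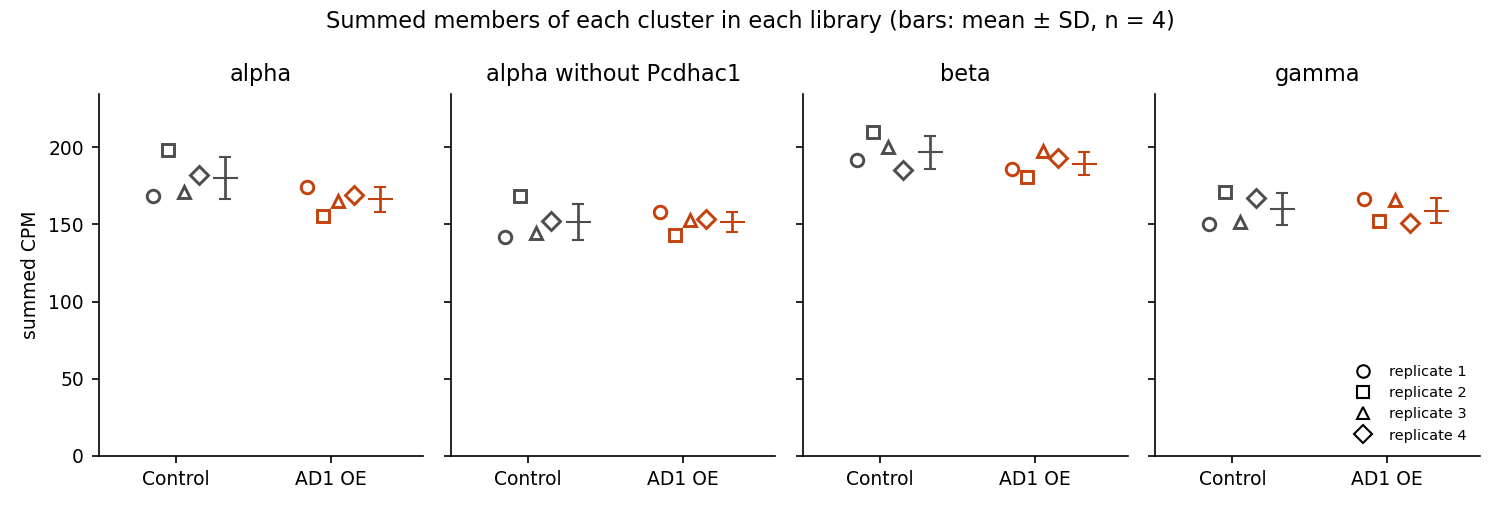
Summed CPM of the alpha cluster, of the alpha cluster without Pcdhac1, and of the beta and gamma clusters (vertical axis) in the 4 Control and 4 AD1 OE libraries (horizontal axis), with a symbol for each replicate number and mean ± SD beside the points. The groups overlap in all 4 panels, and the means of alpha without Pcdhac1 coincide at 152.

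Genes that govern which protocadherin promoter is used were read next. Of 28 listed genes (among them CTCF, the cohesin subunits and their loading and release factors, Smchd1, and DNA and histone methyltransferases), 27 were tested and 0 were called by edgeR or by DESeq2, with 6 (22.2%, against 18.6% of all tested genes) at an unadjusted edgeR p under 0.05. Their summed level was 2658 to 2702 CPM in AD1 OE and 2513 to 2613 CPM in Control, without overlap. Their log2 fold changes lay between -0.04 and 0.18 with a median of 0.07, and 25 were above 0 under each of the 3 scalings. The 4 with the smallest p were Stag1, a cohesin subunit (log2 fold change 0.12, edgeR adjusted p = 0.102), Nipbl, which loads cohesin (0.12, 0.143), Wapl, which releases it (0.11, 0.154), and Ehmt1, a histone methyltransferase (0.08, 0.214). These 4 genes stood at 105.6 to 108.6% of their Control levels.

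Of 28 genes for proteins that act with protocadherin tails or process them (the WAVE complex that drives actin branching, focal adhesion kinases, Adam10 and gamma-secretase), all 28 were tested and 0 were called by edgeR, with 9 (32.1%, against 18.6% of all tested genes) at an unadjusted edgeR p under 0.05. DESeq2 called 1. Their summed level was 4168 to 4326 CPM in AD1 OE and 4416 to 4565 CPM in Control, without overlap. The median was -0.04. Cyfip2, a WAVE complex subunit, had a log2 fold change of -0.24 (edgeR adjusted p = 0.00698). Prkca, a kinase known to act on gamma tails, was at 349, 331, 323 and 379 CPM in AD1 OE replicates 1 to 4 and at 389, 461, 410 and 428 CPM in Control replicates 1 to 4. The groups did not overlap, and its log2 fold change of -0.29 was not past the threshold in edgeR (adjusted p = 0.0161) but past it in DESeq2 (adjusted p = 1.56e-04). Fyn, a tyrosine kinase, had a log2 fold change of -0.13 (edgeR adjusted p = 0.0821), and Ret, a receptor kinase that binds protocadherins, had one of -0.12 (0.199).

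The non-clustered protocadherins, single genes outside the 3 clusters with tails of their own, served as the nearest comparison. All 12 were tested, and edgeR and DESeq2 each called 4 of them. In edgeR 4 were called lower and 0 higher, against 1.78% of all tested genes called lower and 2.57% in either direction. At an unadjusted edgeR p under 0.05, 7 were lower and 0 higher (58.3%, against 18.6% of all tested genes). Pcdh7 was at 69.1, 77.4, 72.9 and 72.3 CPM in AD1 OE replicates 1 to 4 and at 106.5, 103.4, 99.1 and 96.1 CPM in Control replicates 1 to 4, with a log2 fold change of -0.47 (edgeR adjusted p = 4.37e-05). Pcdh9 had one of -0.36 (1.89e-04), Pcdh17 of -0.61 (8.68e-04) and Pcdh11x of -0.50 (0.00422). For these 4 genes (33.3% of the 12) the AD1 OE libraries lay below all Control libraries. The groups did not overlap, in either direction, for 13.0% of all tested genes. The median of the 12 was -0.27, against -0.01 for the clustered members. Pcdhac1 had a lower log2 fold change than any of the 12.

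Taf7 and Slc25a2 lie between the beta and gamma clusters and have promoters of their own. Taf7 had a log2 fold change of 0.16 (edgeR adjusted p = 0.259) and Slc25a2, at 0.497 to 0.786 CPM over the 8 libraries, one of 0.02 (0.976). Of all 14 listed genes around the clusters, 0 were called by edgeR or by DESeq2, where edgeR called 2.57% of all tested genes. At an unadjusted edgeR p under 0.05 there were 2, Taf7 and Ndfip1 (14.3%, against 18.6% of all tested genes).

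Markers of the cells in the ganglion were set beside the fall of Pcdhac1. The 9 pan-neuronal genes summed to 8300 to 9081 CPM in AD1 OE and 8742 to 9075 CPM in Control, and 0 of 9 were called by edgeR or by DESeq2. At an unadjusted edgeR p under 0.05, 2 were higher and 1 lower (33.3%, against 18.6% of all tested genes). The 10 nociceptor markers summed to 2665 to 2898 CPM in AD1 OE and 3374 to 3716 CPM in Control, and 5 of 10 were called lower and 0 higher in edgeR. At an unadjusted edgeR p under 0.05, 5 nociceptor markers were lower and 1 higher (60%, against 18.6% of all tested genes). The called genes were Scn10a, Calca, Tac1, Trpm8 and Mrgprd, named here after their values were seen, and the share called lower among all tested genes was 1.78%. The 9 markers of mechanoreceptors and proprioceptors summed to 1272 to 1374 CPM in AD1 OE and 1375 to 1492 CPM in Control. Of these, 3 of 9 were called lower and 0 higher in edgeR, against the same 1.78%. DESeq2 called 4, among them Ntrk3, which was higher (log2 fold change 0.30, DESeq2 adjusted p = 1.71e-04, edgeR adjusted p = 0.0171). At an unadjusted edgeR p under 0.05, 4 were lower and 2 higher (66.7%, against 18.6% of all tested genes). The 3 called by edgeR were Mafa, Shox2 and Etv1, and they and Ntrk3 were also named after their values were seen. The 9 glial markers summed to 2258 to 2497 CPM in AD1 OE and 2287 to 2692 CPM in Control, with 0 called by edgeR or by DESeq2. At an unadjusted edgeR p under 0.05, 2 glial markers were lower and 0 higher (22.2%, against 18.6% of all tested genes). None of these markers was at 0 in all libraries. The part of these cell classes in the level of Pcdhac1 was not tested.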

How the data were processed

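Total RNA from E18.5 DRG was sequenced from stranded mRNA libraries by the authors, who aligned the reads to GRCm39 with STAR 2.7.8a and counted them with featureCounts 2.0.1. They deposited 1 file of raw counts per gene and library. Whether the counting used the strand, and how it treated reads in exons of several genes, is not given in the sources used here, and the methods also name an annotation of an older build. Symbols and exon overlaps came from GENCODE M21, an annotation of the older build GRCm38, in which 52081 of 55414 gene IDs had a symbol. ENSMUSG00000007440, named Pcdha11 there, was called Pcdha10 as in RefSeq. No coordinates are given.

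Groups came from the sample titles. Counts were fitted in edgeR 4.0.16 (R 4.3.3) with filterByExpr, TMM scaling and the quasi-likelihood test with genotype as the only term. P-values were adjusted over all 17721 tested genes by Benjamini-Hochberg. The thresholds for a call, 0.005 for the adjusted p and 0.25 for the size of the log2 fold change, were those the study gives for this comparison. Its methods also state 0.05 for the adjusted p with a log2 fold change beyond 1, tried here as an alternative. The study used DESeq2, run here (1.42.0) as an alternative. The test was checked on simulated counts. CPM used TMM-scaled library sizes. Reads carried no molecular identifiers, so limits from a count of 0 (3 counts) cover counting error only. The study counts 4 embryos per group.

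The members and gene lists were chosen with earlier results of these data known. Values per library are given for members called, of the C-type, among the 3 highest of a cluster per unshared kilobase, or at an unadjusted p under 0.05, and the 3 lists of regulators, partners and non-clustered protocadherins are represented by their called genes and up to 4 genes with the smallest p. Summed CPM of the further marker lists, with overlap between the groups, were 4955 to 6551 for fibroblasts, 268 to 319 for endothelium, 223.5 to 804 for erythroid cells, 75.9 to 93.5 for macrophages, 2.12 to 14.1 for spinal cord, 87.8 to 456 for skeletal muscle and 262 to 329 for the cell cycle. Of the 44 genes tested in these lists, 0 were called by edgeR or DESeq2. At an unadjusted edgeR p under 0.05 there were 6 of the 44, against 18.6% of all tested genes. Fibroblasts held 3 higher and 1 lower of these, among 7 genes (57.1%).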

Additional observations from a re-analysis of the deposited data

Results flagged for a closer look

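A library stood apart from the other 3 of its group by Dixon's ratio in 9 of 114 groups examined, where chance gives about 1 in 20. Pcdhb7 was at 12.6 CPM in Control replicate 2 and between 5.99 and 6.57 CPM in the other Control libraries. Pcdhga1 was at 10.5 CPM in Control replicate 4 and between 5.78 and 6.29 CPM in the other Control libraries. Smaller gaps were those of Pcdha8 in Control replicate 3 (0.943 CPM, others at most 0.630) and Pcdhgb1 in Control replicate 2 (5.70 CPM, others at most 5.23). Pcdha10 and Pcdhga11 were each low in Control replicate 1, both at 7.61 CPM, with the others at 9.55 CPM or more and 9.24 CPM or more. In AD1 OE, Pcdha1 was at 1.65 CPM in replicate 1 (others at least 2.33), Pcdhb20 at 11.98 CPM in replicate 1 (others at least 14.7) and Pcdhb9 at 16.6 CPM in replicate 3 (others at most 13.7). None of these members was called, and Pcdhac1 was not among them.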

How the results depend on the processing

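Pcdhac1 was called in all 15 alternative fits, with a log2 fold change of -1.07 to -0.91 and an adjusted p of at most 3.34e-04, and it was the only member called in each. It did not pass an absolute log2 fold change over 1, a limit that the study's methods also state, which left 0 members and 0 non-clustered protocadherins. Over all genes, the 455 calls became 747 without the filter on low counts, 657 with DESeq2, 1161 at an adjusted p under 0.05 with no fold limit and 129 if the size of the log2 fold change also had to exceed 1, and 289 to 420 without 1 library, the lowest without AD1 OE replicate 1. Of the partner and processing list, 1 gene was called with DESeq2 and 1 without the filter, 2 with no fold limit, and 0 to 1 without 1 library. Among uncalled members, Pcdhga11 (-0.006) changed sign to 0.012 without composition scaling, to 0.0010 with the replicate block and without AD1 OE replicate 4 or Control replicate 2, 3 or 4 (range without 1 library -0.068 to 0.050), and Pcdhga3 (0.04) did so without AD1 OE replicate 3 (range -0.011 to 0.116). Leaving out 1 library moved the log2 ratio of the summed levels between -0.15 and -0.07 for alpha, between -0.08 and -0.02 for beta, between -0.04 and 0.02 for gamma, and between -0.03 and 0.06 for alpha without Pcdhac1, a sum added after seeing the data. Same-numbered libraries of the groups correlated at -0.01, -0.05, -0.04 and 0.31, so the numbers do not pair them. With the replicate block, 348 genes and 1 member were called, and Pcdhac1 had a log2 fold change of -0.98 (edgeR adjusted p = 1.54e-04). The cause of these shifts was not tested. Depth limits Pcdha8, with 12 to 24 counts.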
